A study of Mus musculus with 14 samples.

Results

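The transcripts described here are those that the assembly placed wholly within an intron of a gene (intronic) or over an exon of a gene on its other strand (antisense). They were chosen as the assembled loci all of whose transcripts carried 1 of these 2 codes, whose rows in the gene table equalled the sum of their transcripts in all 14 libraries, and whose mean was at least 10 normalised fragments. This gave 13831 of the 59796 loci of the table, of which 3644 were intronic, 10172 antisense and 15 held transcripts of both kinds. Loci next to Dyrk1a and at the edge of the duplicated segment were left out by name, which removed 1 locus that would otherwise have qualified. The annotated gene that a locus lies in or opposite is called its partner gene. Partner genes have coordinates on GRCm38 (mm10), while coordinates of the loci themselves were not analysed here.

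Stranded RNA-seq was made from hippocampi of mouse embryos aged E16 to E18. The 189N3 line carries additional mouse Dyrk1a, a kinase gene, on a bacterial artificial chromosome (3 libraries, with 3 from wild-type littermates). The Dp(16)1Yey line carries a duplication, in the heterozygous state, of the part of chromosome 16 that corresponds to human chromosome 21, including Dyrk1a (4 libraries, with 4 wild type). Replicates are numbered from 0, as labelled. The study's methods count embryos per genotype, in numbers equal to the libraries per group, but the labels do not tie a library to an embryo. The p-values measure the spread between these libraries. In bulk tissue, fewer cells of a type and less RNA per cell cannot be told apart.

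Antisense transcripts can pair with, compete with or silence the gene on the other strand, and several imprinted clusters are run by such RNAs. Long genes of neurons have very long introns, whose unspliced RNA is abundant in nuclei, and introns also hold promoters of separate RNAs, among them precursors of miRNAs. In a total RNA library, intronic signal can come from nascent RNA of the host gene or from an independent transcript.

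Among the 13831 loci, the assembly named a miRNA gene as partner for 42, 30 of them antisense and 12 intronic. For 34 of these loci the named gene had a mature sequence in RefSeq. The intronic ones among these could not be placed in strand relative to the miRNA gene, so that they lie within it is not shown. A mature miRNA recognises its targets mainly through its seed, the bases 2 to 8 from its 5′ end. The following mature sequences are shown because their genes lie opposite some of the higher antisense loci of this kind. Some of these genes have another arm that is not shown. The sequences do not show which product, if any, the assembled RNA faces, since the strand setting used in counting is not given. Seeds are in capitals, and positions are on GRCm38.p6.
let-7c-5p: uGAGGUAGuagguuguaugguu
let-7d-5p: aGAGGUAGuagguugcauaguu
miR-30c-5p: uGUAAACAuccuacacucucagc
miR-691: aUUCCUGAagagaggcagaaaa
miR-7a-5p: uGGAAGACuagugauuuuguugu

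Both let-7 members carry the seed GAGGUAG, the family mark of an miRNA that restrains proliferation in differentiating tissue. The let-7c arm lies at chr15:85706616-85706637 on the plus strand, and XLOC_019414, opposite its gene, had a mean of 4962 normalised fragments. The let-7d arm lies at chr13:48536078-48536099 on the minus strand, and XLOC_013146 opposite it had a mean of 2486. The miR-30c arm lies at chr1:23291714-23291736 on the plus strand, and XLOC_001957 opposite it had 2801. The miR-691 arm lies at chr16:74342005-74342026 on the minus strand, and XLOC_020393 opposite it had 8262, the most of the 42. The miR-7a arm, of a miRNA enriched in neuroendocrine cells, lies at chr7:78888295-78888317 on the plus strand, and XLOC_049370 opposite it had 252. XLOC_017925, opposite Mir30b, had 1737. These values count RNA assembled across the miRNA gene, not the mature miRNA. These 6 loci and their partners were picked after values were seen.

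XLOC_019414, opposite let-7c, had 3929, 3750.3 and 2236 fragments in 189N3 and 4323, 3152 and 3984 in its wild type. It had 6354, 3801, 6547 and 5619 in Dp(16)1Yey against 8003, 7937, 4681 and 5152 in its wild type. All wild-type libraries of the second line lay above those of the first. XLOC_020393, opposite miR-691, had 8299, 15567, 3390.0 and 17042 in Dp(16)1Yey against 4746, 5117, 6635 and 6382. Its groups overlapped, and the log2 fold change was 0.71 ± 0.42 (standard error), or 0.47 without Dp(16)1Yey replicate 1. None of the 6 passed limma's test after Benjamini-Hochberg adjustment in any of the 4 comparisons.

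Before other results, Dyrk1a was read in every library as a check of the labels. Its own locus had 4248, 3938 and 5877 normalised fragments in 189N3 and 2448, 2977 and 2126 in wild type, with no overlap. It had 4781, 2124, 3600 and 3044 in Dp(16)1Yey against 2488, 2397, 3171 and 3175. The library labelled Dp(16)1Yey replicate 1 was thus below all 4 of its wild types, and values without it are given beside the results of that line that it moved most. Libraries held 20809135 to 29098454 fragments. Replicates 0 and 1, and replicates 2 and 3, of the Dp(16)1Yey wild type were nearly alike, with a chi-square per degree of freedom of 1.55 and 2.72 against 14.4 to 84.0 for other pairs of libraries within a group. They still differed by more than counting noise and were kept as 4 libraries, which does not show that they are independent. If they are not, p-values that use this group can be too small. Markers of pallial neurons such as Neurod6 and Emx1 were found in all libraries. Summed interneuron markers were 1811 and 1707 in the first of these pairs and 3605 and 3724 in the second, and summed striatal markers were 214 and 214 against 899 and 889. Marker sums varied within other groups as well. Summed striatal markers were 644, 628, 134 and 451 in Dp(16)1Yey. Summed epidermal markers were 227, 204 and 339 in 189N3 and 427, 315 and 1996 in its wild type. Summed choroid plexus markers were 467, 6009 and 2263 against 14230, 617 and 530 there. The part of tissue composition in the results was not tested.

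Antisense loci were the larger and stronger class. Their median over loci of the mean level was 148 normalised fragments (quartiles 56.3 and 413), against 33.8 for intronic loci (16.8 and 106). These are fragment totals, not corrected for length. The relation to the partner differed in kind as well. The 9276 antisense loci whose strand could be placed were all opposite their partner, as the code implies. Of 3156 intronic loci with a placed strand, 2853 (90.4%) also ran opposite to the host gene and 303 ran along it. Antisense loci were spread over 6988 partners, 66.0% of which had a single such locus, and the 10 leading partners held 1.10% of the loci. Intronic loci had 1223 partners, and the 10 leading ones held 21.0%. The hosts of intronic loci had a median length of 58.0 kb (quartiles 22.3 and 144), against 29.2 kb for antisense partners. Protein-coding genes made up 93.2% of intronic and 96.4% of antisense partners with coordinates. The members nearest to the minimum level were XLOC_030518 (Cep110), XLOC_026029 (Prrc1) and XLOC_046902 (Gabrg3), at 10.0022, 10.0033 and 10.0048, and the nearest loci below it were at 9.99426, 9.99561 and 9.99658.

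The strongest locus was XLOC_006917, intronic in Tenm2 (a teneurin of synaptic adhesion, chr11:36006656-37235964). It had 72049.9, 77441 and 26856 fragments in 189N3 against 69447, 58497 and 81951 in wild type. It had 45429, 32618, 54958 and 76472 in Dp(16)1Yey against 56484, 59594, 53402 and 51720.2. In the 189N3 line replicate 2 of the mutant stood well below the rest. The other leading intronic loci were XLOC_055701 in Opcml (an adhesion molecule of the IgLON family), XLOC_032599 in Nlgn1 (a neuroligin of excitatory synapses), XLOC_000559 in Erbb4 (a neuregulin receptor) and XLOC_010851 in Mdga2 (which binds neuroligins), with means of 25991, 15389, 14919 and 14916.

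The strongest antisense locus was XLOC_043468, opposite 6330415B21Rik, with 52933, 55222 and 26403 fragments in 189N3 and 54519, 47128 and 55345 in wild type. XLOC_025022, opposite the netrin receptor gene Dcc, had 28168, 47863, 61057 and 59679 in Dp(16)1Yey and 86436, 91555, 34452 and 33771 in wild type. The wild-type values of Dcc thus split into the pairs of nearly alike libraries, with the Dp(16)1Yey values between and around them. XLOC_035989, opposite the transcription factor gene Nfib, split the same way, with 52921, 55545, 24784 and 24347 in these wild types. XLOC_022945, opposite the sodium-calcium exchanger gene Slc8a1, had 31859, 33845, 24271 and 23513 there. XLOC_021497, opposite 2810055G20Rik, had 34533, 32307, 59507 and 61798 in Dp(16)1Yey against 39359, 41735, 25785 and 24505, a log2 fold change of 0.50 ± 0.26 with overlapping groups. These 10 loci gave no adjusted call in either mutant line.

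The loci took up a share of each library that varied more between replicates than between groups. The share of all fragments was 24.0, 27.8 and 13.7% in 189N3 and 24.0, 21.1 and 24.1% in its wild type. It was 20.2, 23.9, 26.2 and 31.6% in Dp(16)1Yey and 27.8, 28.5, 20.7 and 20.6% in its wild type. Antisense loci made up 11.3 to 25.6% of a library and intronic loci 2.39 to 5.98%. The lowest share was that of 189N3 replicate 2 and the highest that of Dp(16)1Yey replicate 3, and groups overlapped in both lines. The means differed by -1.25 percentage points in 189N3 and by 1.07 points in Dp(16)1Yey. Leaving out single libraries moved these differences across -4.21 to 2.81 and -0.98 to 2.82 points, so that neither direction was kept.

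**Figure D1:**
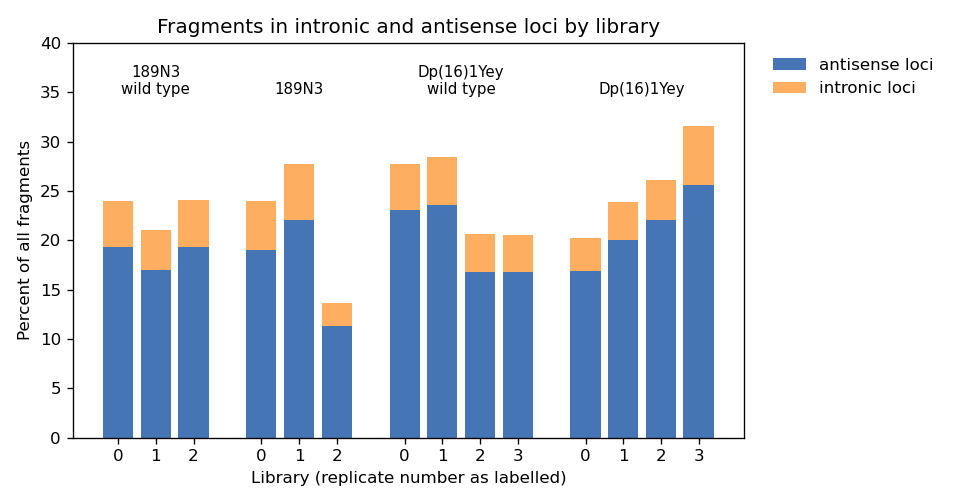
Percent of all fragments of each library that fell in antisense loci (lower part of each bar) and intronic loci (upper part), for the 14 libraries by group, with replicate numbers as labelled. The sum of the 2 parts runs from 13.7% in 189N3 replicate 2 to 31.6% in Dp(16)1Yey replicate 3.

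Most antisense loci followed this library share, and their partner genes went the other way. After group means were removed, the correlation of a locus with the share over 14 libraries had a median of 0.74 over 9691 antisense loci with a measured partner, and 85.3% were positive. For the partners of the same loci the median was -0.68, and 10.7% were positive. A locus and its own partner had a median correlation of -0.17 (quartiles -0.55 and 0.34). For 2532 intronic loci the corresponding medians were 0.59, -0.50 and -0.02. These are descriptions over the same 14 libraries. All values of a library share its size factor, and each locus is itself part of the share. These loci and the loci of named genes held 13.7 and 81.9% of 189N3 replicate 2, and 31.6 and 62.1% of Dp(16)1Yey replicate 3. Together they make up most of a library, so when the share rises, named genes tend to fall. The opposite sign of the partners is thus in part built in.

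The level of an antisense locus relative to its partner was lowest and highest in the same libraries as the share, while the order between them differed in part. The median locus had 26.3% of the fragments of its partner (quartiles 15.2 and 52.9), and 11.6% of loci had more fragments than the partner. The median intronic locus had 6.34%. By library, the antisense median was 25.1, 31.4 and 13.6% in 189N3 and 25.9, 22.6 and 27.1% in its wild type. It was 23.3, 29.6, 32.2 and 38.6% in Dp(16)1Yey and 33.3, 34.0, 22.4 and 22.4% in its wild type. The ranges of mutant and wild-type libraries overlapped in both lines. Read-out of unspliced partner RNA on the other strand and separate antisense transcripts cannot be told apart in these tables, since the strand setting used in counting is not given in the sources used here.

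**Figure D2:**
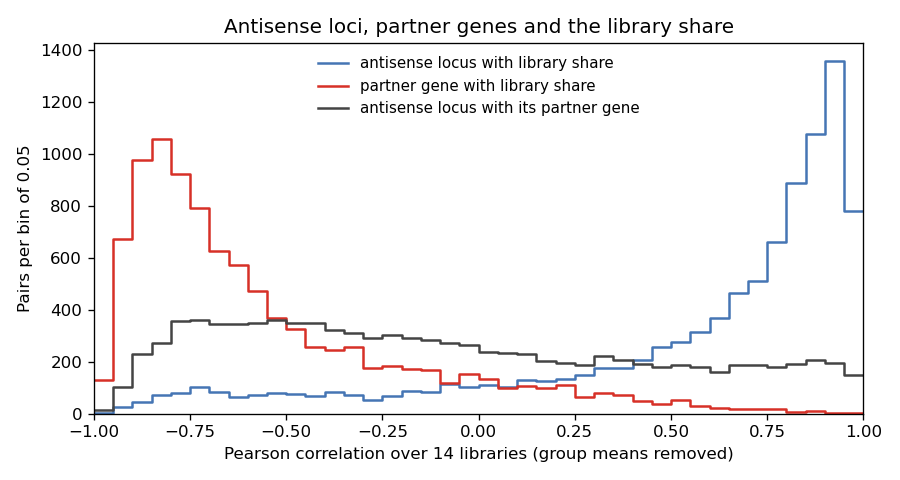
Numbers of antisense locus and partner pairs (y axis, per bin of 0.05) by Pearson correlation over 14 libraries with group means removed (x axis). Correlations of loci with the library share pile up near 1 (median 0.74), those of partner genes lie to the left (median -0.68), and those of each locus with its partner spread widely (median -0.17).

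In 189N3 against its wild type, additional Dyrk1a was not accompanied by any locus that passed the adjusted test. The 5 lower loci with the smallest p faced Fam46c, Tnfrsf14, Kel, Col1a1 and Hist1h2bk. Of 13503 intronic and antisense loci tested with limma, 0 passed an adjusted p of 0.05, as did 0 of all 35899 loci (0% called), and edgeR called 0 and DESeq2 1 of the members. At an unadjusted p of 0.05 there were 182 (81 higher, 101 lower), or 1.35%, against 1.87% of all loci tested (0.825% higher, 1.05% lower). The split was 112 higher and 83 lower when values were scaled to the total of these loci, and 124 and 77 after quantile normalization, so it gave no stable direction. The median log2 fold change was -0.12, with 9522 loci lower and 3981 higher, against -0.04 over all loci, of which 43.8% were higher. It was -0.02 after scaling to the total of these loci. The low share of 189N3 replicate 2 moves with this median, which was 0.10 without it, with 579 loci at an unadjusted p of 0.05 of which 498 were higher. Without 189N3 replicate 1, 869 loci had such a p and 741 of them were lower. Without wild-type replicate 0 there were 89.

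XLOC_033291, opposite Fam46c (a poly(A) polymerase gene), had 179, 286 and 271 fragments in 189N3 and 859, 467 and 504 in wild type. The log2 fold change was -1.28 ± 0.29 (limma, adjusted p = 0.78), with Fam46c itself at -1.21. XLOC_043135, opposite Kel (a blood group protein of red cells), had 36.4, 54.7 and 64.3 against 140.3, 100.2 and 117, or -1.21 ± 0.29. XLOC_009717, opposite Col1a1 (type I collagen), had 58.4, 88.9 and 84.1 against 319.7, 109 and 248, or -1.42 ± 0.35, with Col1a1 itself at -1.54. None of these groups overlapped. Summed erythroid markers (Hbb-bs, Hbb-bt, Hba-a2 and Alas2) were 13751 to 21965 in 189N3 and 33452 to 53934 in wild type, again without overlap. The part of red cells or of other tissue in these values was not tested. No connective tissue markers were read beside Col1a1. XLOC_036975, opposite Tnfrsf14 (a receptor of the tumour necrosis factor family), had 10.2, 10.6 and 13.5 against 40.7, 27.1 and 31.4, or -1.45 ± 0.34. XLOC_014172, opposite the histone gene Hist1h2bk, had 13.5, 12.2 and 10.4 against 28.6, 25.3 and 58.0, or -1.46 ± 0.37. All 5 of these loci were thus lower in each 189N3 library than in each of its wild types. Groups did not overlap in 4.98% of all loci tested (1.99% higher, 2.99% lower).

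On the other side, XLOC_020332, opposite the serotonin receptor gene Htr1f, had 78.7, 41.6 and 71.6 fragments in 189N3 and 9.53, 19.9 and 39.9 in wild type. The difference was 1.59 ± 0.43, and 1.72 for Htr1f itself. XLOC_014063, opposite Inhba (an activin subunit), had 394, 153 and 334 against 109, 102 and 169, or 1.13 ± 0.34 with groups that overlapped, while Inhba differed by 0.46. XLOC_000845, opposite the transporter gene Slco4c1, had 23.7, 20.4 and 33.2 against 2.60, 15.3 and 8.46, or 1.67 ± 0.50. XLOC_001081, opposite AK043935, differed by 1.21 ± 0.37. The exact permutation test over 3 against 3 libraries cannot give a p below 0.1.

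Sgcz, which encodes a sarcoglycan of muscle and brain, held 36 intronic loci, and all 36 were higher in 189N3, by a median of 0.74 (log2) and with 20 at an unadjusted p of 0.05. Over all loci tested in 189N3, 0.825% were higher at that p. The summed loci had 3894, 5193 and 4393 fragments in 189N3 and 1725, 3616 and 3560 in wild type. The groups did not overlap, with wild-type replicate 0 far below. Without that library the median was 0.37, with 35 loci higher and 1 at an unadjusted p of 0.05. In 1 fit of all 4 groups 1 locus reached that p, and without 189N3 replicate 1, 7 did. Summed over the same loci, the Dp(16)1Yey wild type had 1877, 2036, 4032 and 3825 fragments, and Dp(16)1Yey had 3728, 3048, 1079 and 6391. The highest of these wild types thus lay above the lowest 189N3 value. XLOC_051184, the Sgcz locus with the smallest p, differed by 1.06 ± 0.31. Loci of 1 host gene share their source and are not replicates, and Sgcz was picked as a host after its values were seen.

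In Dp(16)1Yey against its wild type, most loci paired with genes of the duplicated segment had higher values, and the loci of several long hosts, among them Zfp804b and Gm20754, had lower ones, without adjusted calls in limma. Of 13714 loci tested with limma 0 passed an adjusted p of 0.05, as did 0 of all 36024 (0% called), and edgeR called 0 and DESeq2 1 of the members. At an unadjusted p of 0.05 there were 465 (231 higher, 234 lower), or 3.39%, against 3.53% of all loci (1.71% higher, 1.82% lower). The split was 119 higher and 408 lower when values were scaled to the total of these loci. Antisense loci had 196 higher and 80 lower among them, and intronic loci 35 higher and 154 lower of 3559 tested, a difference between the classes that was not tested. Without Dp(16)1Yey replicate 1, 137 of 173 such antisense loci and 31 of 97 such intronic loci were higher. The median difference was 0.09 (log2) over all intronic and antisense loci, 0.11 over antisense and -0.01 over intronic ones (1731 higher, 1828 lower), against 0.03 over all loci of the table, of which 54.9% were higher. It was -0.01 over all of them after the same scaling. Leaving out single libraries moved the count of 465 across 270 to 1255. It was 270 without Dp(16)1Yey replicate 1, 1255 without replicate 0 and 857 without replicate 2 of that group. It was 81 when nearly alike libraries were averaged.

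XLOC_043208, intronic in the pseudogene Zfp862-ps, had the smallest p. It had 30.7, 21.2, 36.7 and 56.4 fragments in Dp(16)1Yey and 10.3, 11.9, 4.32 and 6.07 in wild type, and 0 in all 6 libraries of the 189N3 line. The groups did not overlap, the log2 fold change was 2.03 ± 0.38 (limma, adjusted p = 0.909), and Zfp862-ps itself differed by -0.30. XLOC_003621, opposite Abracl (an actin regulator), had 116, 210.4, 156 and 238 against 85.5, 102, 91.8 and 84.9, or 0.93 ± 0.23. XLOC_010456, opposite the proliferation factor gene Mycn, had 97.9, 123, 111 and 144 against 75.2, 72.2, 71.2 and 72.8, or 0.69 ± 0.18, whereas Mycn itself differed by 0.02. XLOC_040841, opposite AK152437, had 670.4, 723, 545 and 656 against 447, 444, 351 and 423, or 0.64 ± 0.16. In each of these 4 loci all Dp(16)1Yey libraries were above all wild types, a separation found in this direction in 1.72% of all loci tested and in either direction in 2.45%.

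Zfp804b, a zinc finger gene of unclear function at chr5:6769010-7344756, held 39 loci, 37 intronic and 2 antisense and all opposite in strand, and took all 5 places of the loci lower in Dp(16)1Yey with the smallest p. XLOC_039096 had 32.6, 32.9, 69.4 and 48.3 fragments against 117, 128, 98.2 and 82.9 in wild type, or -1.25 ± 0.27 without overlap. XLOC_039095 had 16.8, 17.6, 40.8 and 22.1 against 67.0, 57.4, 44.3 and 50.6, or -1.21 ± 0.29. XLOC_039109 had 68.2, 64.6, 145 and 72.5 against 213, 182, 154 and 145, or -1.05 ± 0.26. Dp(16)1Yey replicate 2 came closest to wild type in all 3. Of the 38 loci tested, 38 were lower, with a median of -0.95 and 26 at an unadjusted p of 0.05 (16 to 30 when single libraries were left out, 18 without Dp(16)1Yey replicate 1 and 17 when nearly alike libraries were averaged). Over all loci tested in Dp(16)1Yey, 1.82% were lower at that p. Zfp804b was picked as a host after these values were seen, so its count is a description and not a test. Its loci share their source and are not replicates. The summed loci had 861, 780.5, 1739 and 1062 in Dp(16)1Yey and 2458, 2679, 1696 and 1731 in wild type, so replicate 2 overlapped. The locus of Zfp804b itself had 30.7, 24.7, 71.4 and 30.2 against 72.1, 70.3, 58.3 and 52.6, a difference of -0.79 ± 0.31 in the same direction. In 189N3 the median over 36 loci was -0.27, with 0 at an unadjusted p of 0.05 by limma, and in the test of the difference between the lines 4 of 39 reached it.

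Gm20754, a non-coding gene at chr3:73066316-73594830, held 50 loci, 27 intronic and 23 antisense. Of 47 tested in Dp(16)1Yey, 47 were lower, with a median of -0.61 and 33 at an unadjusted p of 0.05, 8 with nearly alike libraries averaged and 17 without wild-type replicate 2. Over all loci tested, 1.82% were lower at that p. Without Dp(16)1Yey replicate 1 the median of the Gm20754 loci was -0.41, with 22 at that p. Their sum was 7087, 4605, 8526 and 7540 in Dp(16)1Yey and 9154, 9514, 11076 and 10889 in wild type, without overlap. Gabrb1, a subunit gene of the GABA-A receptor, held 22 loci, and all 22 were lower, with a median of -0.87 and 9 at an unadjusted p of 0.05. Its sum was 3174, 1046, 5359 and 3260 against 5602, 6031, 4580.0 and 4454, so replicate 2 overlapped and replicate 1 was lowest. Without Dp(16)1Yey replicate 1 the Gabrb1 median was -0.41 and 3 loci had such a p, without replicate 2 there were 20, and with nearly alike libraries averaged 0 of its loci had an unadjusted p of 0.05 by limma. Gm20754 and Gabrb1 were picked as hosts after their values were seen. Such one-sidedness was not particular to them. Of 38 hosts with at least 25 loci, 8 had lower values at every locus tested in Dp(16)1Yey and 3 had higher values at every locus. AK077481 was lower at 37 of 37, with a median of -1.15 but 1 locus at an unadjusted p of 0.05, Hs6st3 (a heparan sulfate sulfotransferase) at 33 of 33 with -0.55 and 7, Trpm3 (a cation channel) at 33 of 33 with -0.33 and 3, and Adarb2 (an RNA editing family member) at 24 of 24 with -0.41 and 3. These 4 medians were -0.53, -0.41, -0.17 and -0.23 without Dp(16)1Yey replicate 1.

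**Figure D3:**
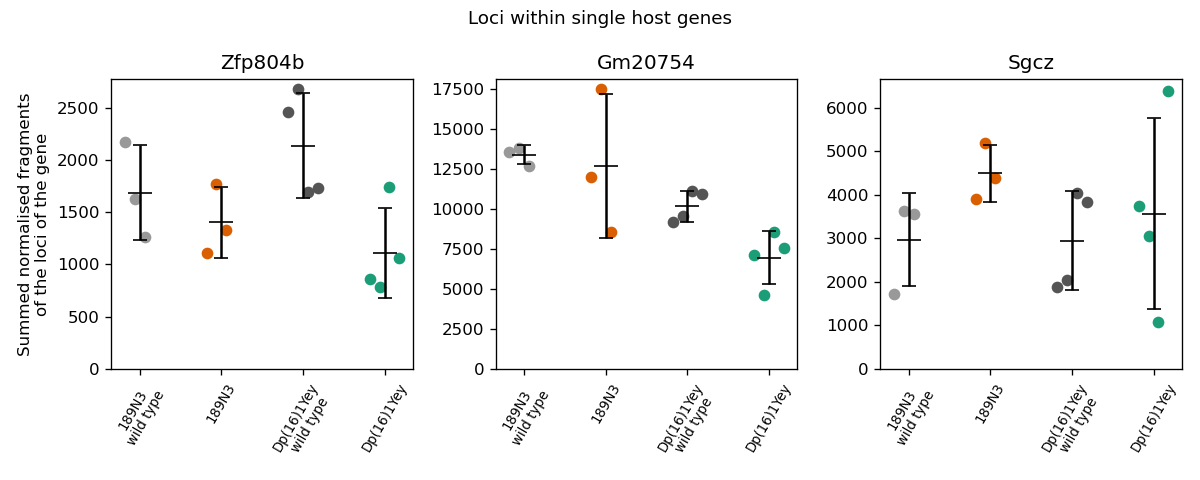
Summed normalised fragments of the loci in Zfp804b, Gm20754 and Sgcz (y axis) for each library of the 4 groups (x axis), with mean and SD as bars. Sums in Gm20754 are 4605 to 8526 in Dp(16)1Yey and 9154 to 11076 in its wild type, while in Zfp804b Dp(16)1Yey replicate 2, at 1739, lies within the wild-type range.

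The hosts with the most loci had few loci at an unadjusted p of 0.05, although several leaned to 1 side. Nkain2, which encodes a protein that interacts with the sodium pump, held 109 loci, Macrod2 held 103, and Il1rapl1 and Lsamp, both coding for synaptic or axonal adhesion proteins, held 91 each, all on the strand opposite the host. In Dp(16)1Yey the medians were 0.04 for Nkain2, -0.01 for Macrod2, -0.25 for Il1rapl1 and -0.05 for Lsamp. In 189N3 they were 0.22, 0.06, -0.22 and 0.14. Il1rapl1 was lower at 82 of 90 loci in Dp(16)1Yey and at 74 of 89 in 189N3, and Nkain2 was higher at 93 of 108 in 189N3. At most 4 loci of any of these 4 hosts had an unadjusted p of 0.05 in either line. Among the next hosts, chosen after their values were seen, Pcdh9 (a protocadherin) was higher at 81 of 84 loci in Dp(16)1Yey with 1 at that p, Csmd1 (a complement regulator) lower at 79 of 80 with 9, and Kcnip4 (a potassium channel partner) higher at 54 of 55, with a median of 0.57 and 6 at that p. Their medians were 0.19, -0.30 and 0.62 without Dp(16)1Yey replicate 1. The Kcnip4 sum was 7020, 8523, 5369 and 17542 in Dp(16)1Yey against 4204, 4599, 7134 and 7046 in wild type. These groups overlapped, and replicate 3 was far above the rest. The Pcdh9, Csmd1 and Kcnip4 genes themselves differed by 0.46, -0.69 and 0.04. The Nkain2 sum ranged over 11542 to 37105 in Dp(16)1Yey, wider than the range of 17882 to 19247 in wild type.

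The duplicated segment, taken as 75540514 to 97962622 of chromosome 16, held the partners of 64 loci (55 antisense, 8 intronic and 1 of both kinds) in 37 partner genes. Each partner is present in an additional copy in Dp(16)1Yey. Loci were placed by the coordinates of their partner, and loci with an unplaced partner are not among the 64. XLOC_021497 of 2810055G20Rik is not among them, although its number lies between those of XLOC_021493 and XLOC_021513 of the segment. It had more fragments than any of them. Of the 64 loci, 60 were higher and 4 lower in Dp(16)1Yey, by a median of 0.55 (log2), against 0.03 over all loci. At an unadjusted p of 0.05 there were 27 of 64, all higher, where 1.71% of all loci tested were higher at that p. In 11 the groups did not overlap, with Dp(16)1Yey higher, against 1.72% of all loci. None of the 64 passed the adjusted test in limma. The partner genes' own loci had a median of 0.39 over 63 pairs. Of 452 tested loci elsewhere on chromosome 16 the median was 0.10, and 10 had an unadjusted p of 0.05.

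B130034C11Rik, a non-coding RNA gene, was faced by XLOC_021542, with 57.4, 43.5, 55.1 and 45.3 fragments in Dp(16)1Yey and 24.7, 25.7, 28.1 and 32.4 in wild type (0.83 ± 0.21). XLOC_021513, intronic in Cxadr (a cell adhesion protein and virus receptor), had 46.5, 34.1, 54.1 and 61.4 against 19.6, 30.7, 25.9 and 23.3 (0.94 ± 0.25). XLOC_021534, opposite the methyltransferase gene N6amt1, had 68.2, 64.6, 76.5 and 82.5 against 58.7, 35.6, 37.8 and 33.4 (0.83 ± 0.22). In these 3 loci every Dp(16)1Yey library was above every wild type. XLOC_020532, opposite Tiam1 (an activator of the GTPase Rac in spine formation), had 165, 108, 146 and 205 against 94.8, 92.0, 85.3 and 81.9 (0.78 ± 0.21), and Tiam1 itself differed by 0.00. XLOC_020501, opposite the mitochondrial ribosomal gene Mrpl39, had 175, 244, 267 and 307 against 150.4, 178, 128 and 123 (0.76 ± 0.21). The Tiam1 groups did not overlap, while in Mrpl39 1 Dp(16)1Yey value, 175, lay below the wild-type value of 178. Each had an adjusted p of 0.909 with limma.

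The 3 strongest of the 64 loci did not share a direction, with that of Ncam2 slightly lower and those of Itsn1 and Brwd1 higher. XLOC_021518, opposite the adhesion gene Ncam2, had 4156, 2659, 6618 and 5237 fragments in Dp(16)1Yey against 4578, 4911, 4879 and 4753, or -0.11 ± 0.24. XLOC_021613, opposite Itsn1 (intersectin, of endocytosis), had 2996, 2853, 4724 and 5874 against 3432, 3353, 2206 and 2219, or 0.52 ± 0.26. XLOC_020602, opposite Brwd1 (a bromodomain protein), had 1795, 2323, 2979.8 and 3272 against 1919, 1969, 1219.7 and 1301, or 0.69 ± 0.23. All 3 pairs of groups overlapped. The Ncam2 locus was at 0.13 without Dp(16)1Yey replicate 1. The other lower loci were XLOC_021519 and XLOC_021521 of Ncam2, at -0.02 and -0.01, and the locus of the potassium channel gene Kcnj6, at -0.54.

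The shift of the segment was not equal over libraries. The median over its loci, relative to the median over all intronic and antisense loci of the library, was 0.47, 0.08, 0.52 and 0.67 (log2) in Dp(16)1Yey replicates 0 to 3. In the other 10 libraries it lay between -0.07 and 0.08. The library labelled Dp(16)1Yey replicate 1 was thus at the upper end of the wild types, as it was low for Dyrk1a. Without it the median fold change was 0.67, with 41 loci at an unadjusted p of 0.05. Without replicate 3 it was 0.35 with 18 such loci.

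**Figure D4:**
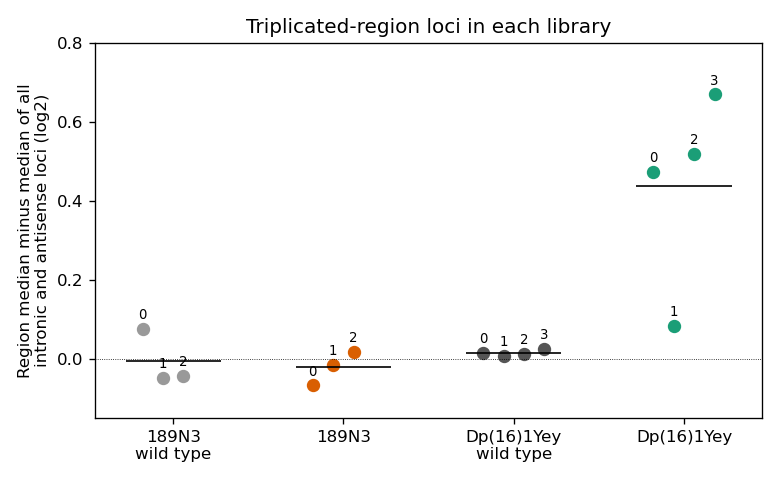
Median log2 level of the 64 loci of the duplicated segment minus the median of all intronic and antisense loci, for each library (points) by group (x axis). Dp(16)1Yey replicates 0, 2 and 3 lie at 0.47, 0.52 and 0.67, and replicate 1, at 0.08, lies with the other groups.

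In 189N3 the same 64 loci had a median of -0.15 over 63 tested, with 14 higher and 1 at an unadjusted p of 0.05. The test of the difference between the lines had a median of 0.72, with 17 of 64 at an unadjusted p of 0.05, against 2.66% of all 36045 loci, and 0 at an adjusted one in limma. Proximal to the segment, the 11 loci of Robo2 (an axon guidance receptor), whose partner starts 1.65 Mb before it, had medians of 0.68 in Dp(16)1Yey and 0.31 in 189N3. All 11 were higher in both lines, with 0 at an unadjusted p of 0.05 by limma. The miR-691 gene also lies between the start of Robo2 and that of the segment. XLOC_020393 opposite it, described above, differed by 0.71 in Dp(16)1Yey. Whether its RNA belongs with that of the Robo2 loci was not tested.

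**Figure D5:**
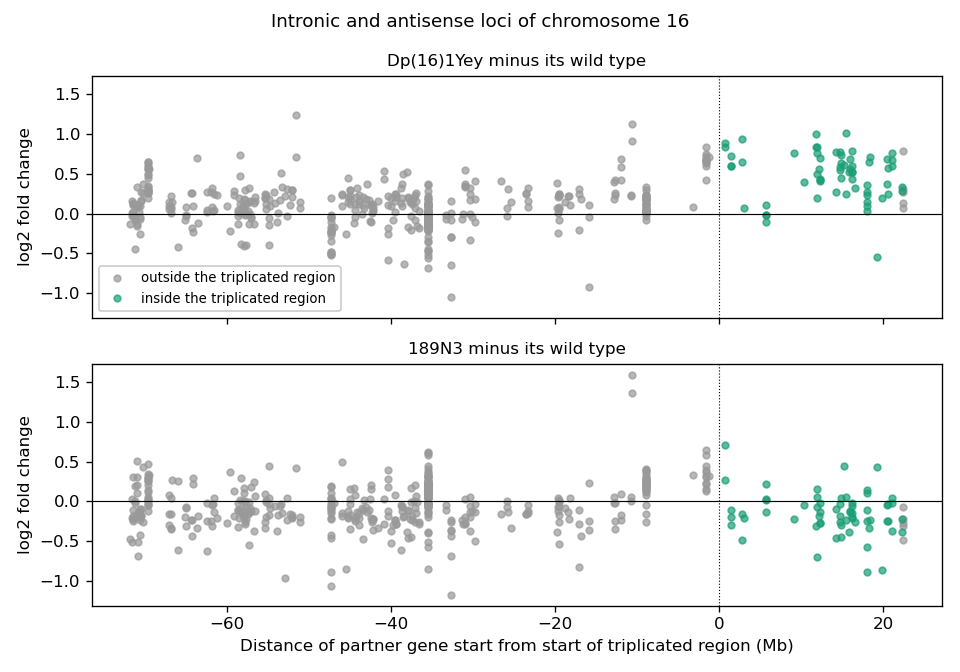
log2 fold change (y axis) of each intronic or antisense locus with a partner on chromosome 16 against the distance in Mb of the partner's start from the start of the duplicated segment (x axis), in both lines. In Dp(16)1Yey the loci of the segment have a median of 0.55 and those outside a median of 0.10, while in 189N3 the segment's median is -0.15.

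Sorted by what the partner genes do, the loci showed few groups that stood apart from the 3.53% of all loci with an unadjusted p of 0.05 in Dp(16)1Yey, and no locus in these lists passed the adjusted test there with limma. Of 128 loci of glutamate and GABA receptor genes, 118 were tested, 96 were lower, the median was -0.37, and 19 had such a p, all lower. Of these 128, 22 are the loci of Gabrb1 described above. Without Dp(16)1Yey replicate 1 the median was -0.18 and 8 of 122 had such a p. XLOC_044229, opposite the NMDA receptor gene Grin2b, had 8355, 2507, 4389 and 5018 against 5358, 5607, 7382 and 7729.8, or -0.47 ± 0.30. Replicate 0 was thus highest of all, and replicate 1 lowest, and without replicate 1 the difference was -0.18. In 189N3 the same locus had 7437, 9216 and 11068 against 6355, 7185 and 5889, or 0.50 ± 0.23 without overlap.

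Synaptic adhesion genes, such as Tenm2, Nlgn1 and Lsamp, had 660 loci, with a median of -0.05 and 22 of 647 tested at an unadjusted p of 0.05. Postsynaptic scaffold genes had 108, with a median of -0.03 and 1 of 103. Their highest locus, XLOC_049535 opposite Dlg2 (which encodes PSD-93), had 14339.5, 4645, 6812 and 12621 against 9256, 10045, 14092 and 13937, or -0.42, and -0.12 without replicate 1. Neural transcription factor genes had 131 loci with a median of 0.00 and 7 at that p. Axon guidance genes had 136 with 0.10 and 5, and long host genes 478 with -0.08 and 36 of 467. The synaptic adhesion genes had 13 and the long host genes 12 such loci without Dp(16)1Yey replicate 1, with medians of -0.02 and 0.02.

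Chromatin regulator genes had 83 loci with a median of 0.14, of which 68 were higher and 2 had an unadjusted p of 0.05. XLOC_043186, opposite the histone methyltransferase gene Ezh2, had 2914, 5579.6, 4821 and 6051 against 4645, 4942, 3482 and 3415, with overlap. Cell cycle and histone genes had 16 loci with a median of 0.36, 14 higher and 4 at that p. XLOC_044032, opposite the cyclin gene Ccnd2, had 807, 1674, 1142 and 936 against 917, 953, 721 and 811, or 0.37 ± 0.22. Without Dp(16)1Yey replicate 1, the highest for Ccnd2, that difference was 0.17, the list's median was 0.17 with 2 of 15 at that p, and the chromatin median was 0.08. Imprinted genes had 27 loci with a median of 0.07 and 1 of 26 at that p. XLOC_012502, opposite the maternally expressed RNA Rian, had 3485, 2829, 3609 and 3625 against 3463, 3627, 3695 and 3574, which overlapped.

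In 189N3 these lists had medians between -0.23 (neural transcription factor genes, 94 of 125 lower) and -0.04 (long host genes). Chromatin regulator genes had -0.19, with 72 of 82 lower, and receptor genes -0.05. The median over all intronic and antisense loci was -0.12 there.

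The wild types of the lines differed more than mutant and wild type did within a line, and line, litter and any batch cannot be told apart in this comparison. Relative to the 189N3 wild type, 406 of 13710 loci passed the adjusted test of limma in the Dp(16)1Yey wild type (331 higher, 75 lower), which is 2.96%, against 3.75% of all 36047 loci (2.29% higher, 1.46% lower). Over all loci 56.7% were higher. After quantile normalization the split was 215 higher and 162 lower. Few calls were made when single libraries were left out or averaged. With nearly alike libraries averaged 3 loci passed, and leaving out single libraries left 0 to 14.

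Rgs5, a regulator of G proteins in pericytes, was faced by XLOC_003142, with 2115, 2228 and 2512 fragments in the 189N3 wild type and 1166, 1098, 1011 and 983 in the Dp(16)1Yey wild type. It fell by 1.10 ± 0.12 on the log2 scale (limma, adjusted p = 0.00863), kept a call in 17 of 21 alternatives, and Rgs5 itself differed by -1.05. XLOC_017798, opposite Tmem74 (a membrane protein of autophagy), had 3283, 3138 and 4118 against 1746, 1819.8, 1694 and 1530.0, fell by 1.04 and kept a call in 15 of 21. XLOC_028131, opposite Sh3glb2 (an endophilin), had 152, 153 and 149.8 against 369, 366, 301 and 316. It rose by 1.15 ± 0.14 (limma, adjusted p = 0.0125) and kept a call in 14 of 21 alternatives, while Sh3glb2 itself differed by 0.33. None of these groups overlapped, as in 25.5% of all loci in this comparison.

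XLOC_008129, opposite the histone deacetylase gene Hdac5, had 189, 149 and 168 against 384, 398, 309.8 and 370.1, a rise of 1.11 ± 0.15. XLOC_017247, intronic in Gtf2f2 (a subunit of the general factor TFIIF), had 196, 210.3 and 251 against 108, 93.0, 87.4 and 99.1. It fell by 1.16 ± 0.16, with Gtf2f2 itself at -0.33. XLOC_051587, opposite the lysosomal reductase gene Ifi30, rose by 1.48 ± 0.20, XLOC_050278, opposite the kinase gene Sbk1, by 1.01 ± 0.13, and XLOC_030363, opposite Ralgds, by 0.97 ± 0.13. Calls were kept in 13 of 21 alternatives for Hdac5 and Sbk1, 14 of 21 for Gtf2f2, 12 of 20 for Ifi30 and 11 of 21 for Ralgds. Ifi30, Sbk1 and Ralgds themselves differed by 0.21, 0.54 and 0.52. XLOC_009717 of Col1a1 had 319.7, 109 and 248 against 4.12, 3.96, 4.32 and 20.2, and fell by 4.82 ± 0.55 (limma, adjusted p = 0.011). XLOC_043135 of Kel fell by 2.82 ± 0.35. Erythroid markers were also lower in the Dp(16)1Yey wild type, at 4516 to 16940.1 against 33452 to 53934. The part of red cells or of other tissue in the fall of XLOC_009717 and of XLOC_043135 was not tested.

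The interaction test, which asks whether Dp(16)1Yey and 189N3 departed differently from their wild types and uses the same libraries as the comparisons above, gave 0 adjusted calls in limma among 13831 loci, as among all 36045, and edgeR and DESeq2 gave 0 as well. At an unadjusted p of 0.05 there were 281 (206 higher in Dp(16)1Yey, 75 lower), against 1.53% higher and 1.12% lower over all loci, and the median was 0.20, where 57.2% of all loci were higher. Without 189N3 replicate 2 the split was 109 higher and 159 lower, and after scaling to the total of these loci 131 and 182. The count was 869 without Dp(16)1Yey replicate 0, 655 without 189N3 replicate 1, 191 without Dp(16)1Yey replicate 1 and 134 without the 189N3 wild-type replicate 2. XLOC_048505, opposite the neuronal splicing factor gene Nova2, had 336, 295 and 282 in 189N3 against 209.7, 182 and 185, and 209.6, 145, 137 and 234 in Dp(16)1Yey against 222, 231, 229 and 233. The difference was -1.03 ± 0.28 (limma, adjusted p = 0.922), and the groups did not overlap in the 189N3 line but did in the other. XLOC_034257, opposite the lysosomal transporter gene Mfsd1, had 44.8, 44.1 and 33.2 against 61.5, 58.7 and 64.0 in the 189N3 line, and 58.3, 94.0, 63.3 and 93.6 against 50.5, 63.3, 50.7 and 36.4 in the Dp(16)1Yey line, a difference of 1.20 ± 0.34. XLOC_023948, opposite the synaptic adhesion gene Lrfn2, differed by -1.30 ± 0.38, and XLOC_028465, opposite the sodium channel gene Scn9a, by -2.28 ± 0.73.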

How the data were processed

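The authors aligned stranded total RNA reads to mm10 with TopHat and Bowtie and assembled transcripts with Cufflinks. The deposited tables hold signal, that is fragments per locus divided by 1 size factor per library. Dividing by the step of 1 fragment gave whole numbers, within 0.02, for 100% of values in every library. The study's methods describe a removal of antisense and unknown transcripts, whereas these tables hold them. The labels list polyA RNA and the kit is one for total RNA. The strand setting is not given in the sources used here.

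Values were tested as log2(value + 1) with limma 3.58.1 (trend, R 4.3.3) over all loci with a mean of at least 10 in the libraries compared, with Benjamini-Hochberg adjustment at 0.05. Fold changes are on this scale, which understates those of low loci. Comparisons were each mutant against its wild type, wild type against wild type, and the difference of the mutant effects. edgeR 4.0.16 and DESeq2 1.42.0 were run on the recovered fragments, and over all loci edgeR called 0 in 189N3, 0 in Dp(16)1Yey and 1085 between the wild types. The scripts were tested on simulated data. Summaries used Python 3.11.15, numpy 2.4.6, pandas 2.3.3 and scipy 1.17.1. Partner coordinates are GENCODE M21, and miRNA sequences RefSeq GRCm38.p6.

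Named loci were the 5 intronic and 5 antisense with the highest mean, the 5 with the smallest p per direction and comparison, those of the duplicated segment (5 by p, 3 by mean), the 3 highest of each host list and the 3 hosts with the most loci. Members, lists and tests were chosen with earlier results of these data known.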

Additional observations from a re-analysis of the deposited data

Results flagged for a closer look

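Among 112 groups of 4 libraries examined, 2 held a library far from the other 3, where chance gives about 1 in 20. XLOC_039109 of Zfp804b had 145 normalised fragments (144.908) in Dp(16)1Yey replicate 2 against 64.6 to 72.5 in the other Dp(16)1Yey libraries. XLOC_009717 of Col1a1 had 20.2 in the Dp(16)1Yey wild-type replicate 3 against 3.96 to 4.32 in the other wild types.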

How the results depend on the processing

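Adjusted calls by limma moved as follows. In the wild-type comparison 406 became 1009 with DESeq2 (386 shared), 335 with edgeR, 165 with no filter (164 shared), 24 with no intensity trend, 10 when scaled to the total of the intronic and antisense loci, 9 in 1 fit of all 4 groups, 5 with a replicate block (3 shared) and 3 with nearly alike libraries averaged. Leaving out single libraries gave 0 to 14. In 189N3 0 became 1 with DESeq2 and 11 with the block (0 to 1 without single libraries), and in Dp(16)1Yey 1 with DESeq2 (0 to 0). The difference between lines stayed at 0 (0 to 0). Same-numbered libraries deviated with correlations of -0.45 to 0.40, so the numbers were not taken as pairs. The duplicated segment kept its direction in 18 of 18 alternatives, with a median of 0.35 to 0.67 without single libraries. The scaling to the member total and the alternative of 1 locus per partner gene were chosen after seeing the data, and gave segment medians of 0.45 and 0.56. For single named loci, 884 of 953 recomputed values kept direction and side of the threshold, 64 lost and 5 gained a call. The cause was not tested. With 3 or 4 libraries a group, and loci near 10 fragments, small differences were not detectable.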
